A study of Mus musculus with 12 samples.

Results

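The chemokine receptor genes Cxcr3, Cxcr4, Cxcr5, Cxcr6, Ccr2, Ccr4, Ccr6, Ccr8 and Ccr9 were followed across 4 groups of mouse T cells by RNA sequencing. These 9 genes were chosen by name and found by symbol or Ensembl identifier among 38924 gene identifiers with a count. Naive CD4+ T cells had been sorted from the spleens of wildtype (WT) and STINGgt/gt mice, both on the C57BL/6 background, of the same gender and 8 to 12 weeks old. STINGgt/gt mice (Goldenticket) carry a germline missense mutation that leaves them without functional STING, the adaptor that responds to cyclic dinucleotides, and the sample labels call this genotype STING KO. The cells of every group were expanded for 2 days with anti-CD3 and anti-CD28 antibodies and rested for 1 day. They then received either the solvent DMSO or 10-carboxymethyl-9-acridanone (CMA), a cell-permeable small molecule that activates mouse STING, for 16 h. Each of the 4 groups held 3 libraries. The study describes the libraries of a group as biological replicates, and the labels do not say whether each came from a separate mouse. T cells of the 2 genotypes came from different mice, and the genotype cannot be told apart from any other difference between those mice or cultures.

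Chemokine receptors are cell surface receptors coupled to inhibitory G proteins, which steer leukocytes along gradients of small secreted proteins, the chemokines. Activated CD4+ T cells exchange one set of receptors for another, and the set they carry directs them to lymph node follicles, bone marrow, skin, gut or inflamed tissue. Several receptors therefore serve as surface markers of helper subsets, such as CXCR3 on Th1 cells, CCR4 and CCR8 on Th2 and regulatory cells, CCR6 on Th17 cells and CXCR5 on follicular helper cells. Many of the receptors are shared with B cells or myeloid cells.

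The 12 libraries held from 27414450 to 43784910 reads on genes. Replicates differed by more than sampling noise in every group. The chi-square over its degrees of freedom was 2.59 to 6.66 in 3 groups and 9.67 to 29.0 among the WT libraries with DMSO, where replicates 2 and 3 were farthest apart. T-cell identity was checked with 8 marker genes, all of them detected, whose summed level was 3076 to 3147 CPM (counts scaled to the library size) in WT with DMSO, 2815 to 2825 in WT with CMA, 3150 to 3177 in STINGgt/gt with DMSO and 3185 to 3254 in STINGgt/gt with CMA. The WT libraries with CMA lay below all others, with 5 of 8 markers lower with CMA in WT (Cd3e by -0.66 on the log2 scale) and 1, Cd4, higher. Over all genes tested, 37.4% were lower and 33.0% higher in that comparison. Cd4 averaged 436 to 540 CPM in the groups. Transcripts of other cells were present too and moved with the groups. The summed level of 6 B-cell markers was 633 to 696 CPM in WT with DMSO, 716 to 799 in WT with CMA, 289 to 298 in STINGgt/gt with DMSO and 307 to 318 in STINGgt/gt with CMA. For 7 myeloid markers the ranges were 48.7 to 52.7, 60.1 to 63.3, 36.1 to 37.9 and 34.5 to 38.9 CPM in the same order, and the macrophage marker Adgre1 had at most 6 counts in any library. The higher sum with CMA in WT is that of Cst3, at 38.6 and 55.7 CPM, while Lyz2 (3.25 and 1.16), Itgam (3.31 and 1.02) and Fcer1g (4.23 and 2.54 CPM) were lower. For 6 markers of CD8 T cells and natural killer cells they were 58.3 to 63.2, 41.1 to 44.0, 24.7 to 26.0 and 25.4 to 26.3 CPM. In bulk RNA, fewer cells of a type and less RNA per cell cannot be told apart.

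The receptor genes covered a wide range of levels. Scaled to exon length, Cxcr4 was the most abundant with a mean of 28.5 CPM per kb over the 12 libraries, followed by Cxcr5 (17.7), Ccr4 (17.2), Ccr8 (12.9), Cxcr3 (3.28), Ccr6 (2.20), Ccr2 (0.652) and Cxcr6 (0.461). The order differed between the groups. In STINGgt/gt the highest mean was that of Ccr4, at 19.4 CPM per kb with DMSO and 17.8 with CMA, where Cxcr4 had 14.2 and 11.6. The STINGgt/gt means of Ccr8 (9.59 and 9.22) were above those of Cxcr5 (8.42 and 8.43), with overlapping libraries under CMA. In WT, Ccr4 had 22.3 CPM per kb with DMSO, above Cxcr5 (19.7), and 9.28 with CMA, below Ccr8 (20.1). Among all 13811 genes with enough counts to be tested, the means over the 12 libraries reached from the 15.5th percentile for Cxcr6 to the 86.2nd for Cxcr4. Ccr9, the receptor for the gut chemokine CCL25, had 0 to 3 counts in every library, at the floor of 3 counts in all groups, so 8 of the 9 genes could be tested and no fold is given for Ccr9. Replicates were closest for Cxcr5 in WT with CMA, with a coefficient of variation of 2.03%, and farthest apart for Ccr6 in WT with DMSO (26.3%), among the 8 genes tested. The spread did not follow the level in every group, since with DMSO in STINGgt/gt it was 8.45% for Cxcr4 and 3.32% for Cxcr6.

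**Figure D1:**
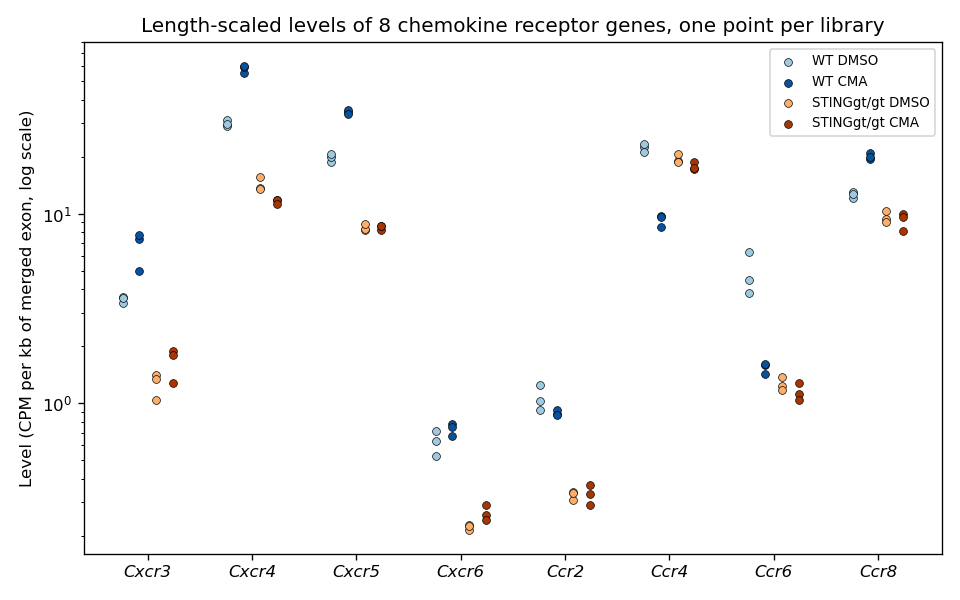
Level of the 8 tested chemokine receptor genes per kb of merged exon (y axis, log scale), with each library as a point and the groups coloured. Cxcr4 is the highest in the WT libraries with CMA and Cxcr6 has the lowest mean in every group, 0.222 to 0.733 CPM per kb.

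With CMA, WT T cells carried more mRNA for Cxcr3, Cxcr4, Cxcr5 and Ccr8, by 1.60 to 1.95-fold, and less for Ccr4, Ccr6 and Ccr2, by 1.22 to 3.18-fold. Cxcr6 did not pass the threshold of an adjusted p under 0.05 (edgeR). Thus 4 of the 8 genes were higher and 3 lower, against 33.0% higher and 37.4% lower among all genes tested, so that the number of receptor genes called was not far from the 70.4% of all genes that were called. The median size of the change, either way, was 0.86 on the log2 scale beside 0.39 over all genes, which was not tested. By the size of its change Ccr6 stood at the 92.5th percentile of all genes, whereas Ccr2 (38.2) and Cxcr6 (31.8) stood in the lower part. Without functional STING, Cxcr4 was the only gene called, lower by 1.22-fold, and 1.32% of all genes were called (0.398% higher, 0.920% lower).

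**Figure D2:**
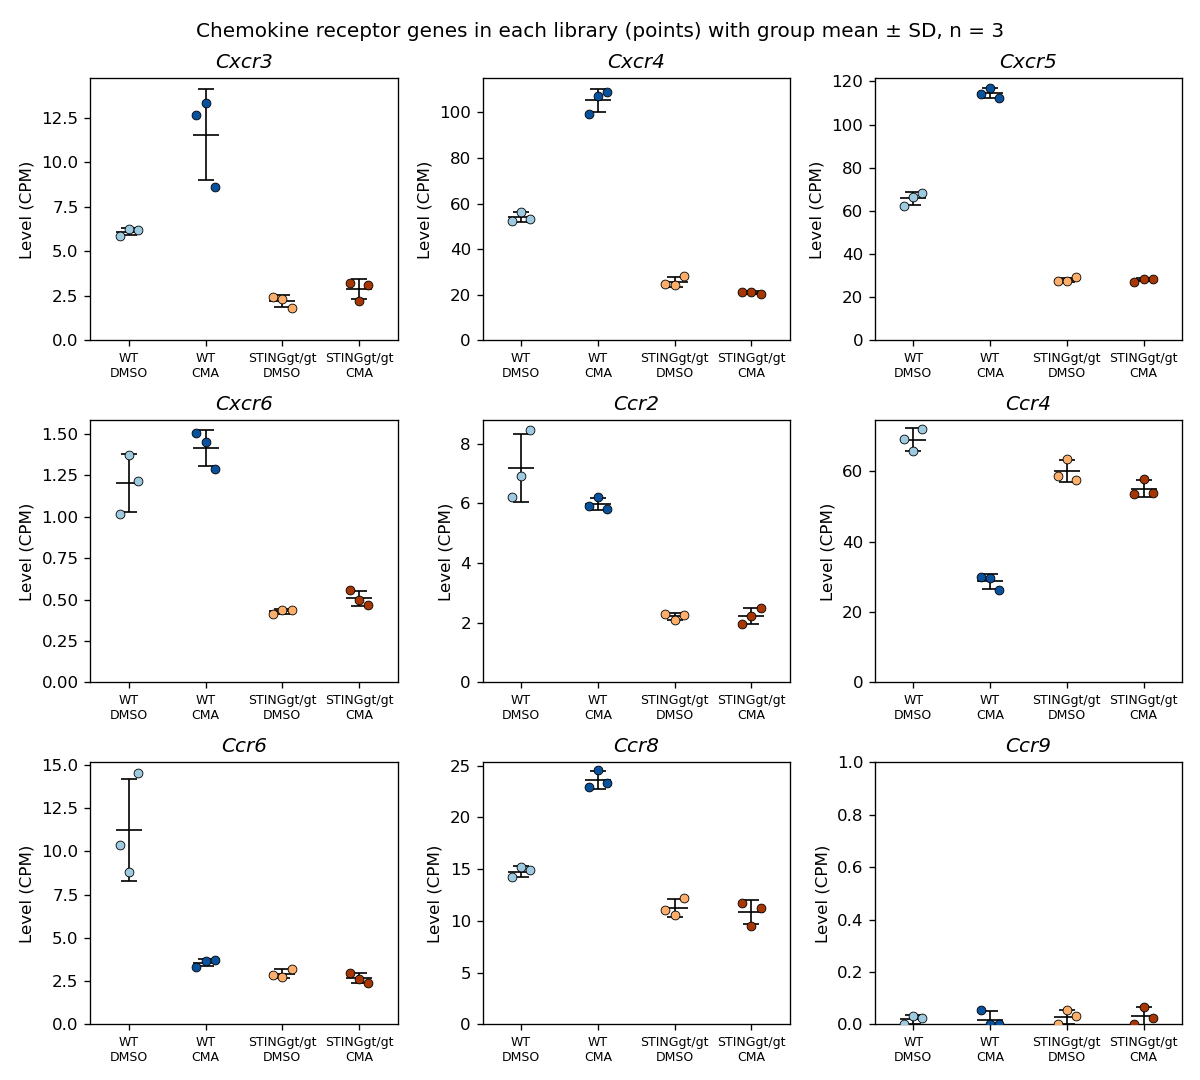
Level of each chemokine receptor gene (y axis, CPM on a linear axis from 0) in the 12 libraries, with the mean and SD of each group of 3. CMA libraries lie above the DMSO libraries in WT for Cxcr3, Cxcr4, Cxcr5 and Ccr8 and below them for Ccr2, Ccr4 and Ccr6, and Ccr9 stays at the floor. Among all genes tested, 71.1% did not overlap in this comparison.

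The 250 bases before the start of the genes are shown for Cxcr4, Ccr8, Ccr4 and Ccr6, as the reference sequence in which regulators of these genes may bind. These receptors rose or fell with CMA in WT, as did Cxcr3 and Ccr2, whose windows are not printed. The table of RefSeq starts used here (GRCm38.p6) was matched for 8 of the 9 genes, all but Cxcr5, with 2 starts for Ccr6. In each sequence, read 5′ to 3′ in the direction of the gene and ending at the base before the start, capitals mark matches to the motifs searched.
Cxcr4, chr1:128592300-128592549, minus strand: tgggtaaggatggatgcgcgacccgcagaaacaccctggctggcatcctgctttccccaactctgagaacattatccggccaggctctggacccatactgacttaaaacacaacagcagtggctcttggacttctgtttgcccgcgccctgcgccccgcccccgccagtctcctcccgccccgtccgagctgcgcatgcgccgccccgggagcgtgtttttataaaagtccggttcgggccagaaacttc
Ccr8, chr9:120091883-120092132, plus strand: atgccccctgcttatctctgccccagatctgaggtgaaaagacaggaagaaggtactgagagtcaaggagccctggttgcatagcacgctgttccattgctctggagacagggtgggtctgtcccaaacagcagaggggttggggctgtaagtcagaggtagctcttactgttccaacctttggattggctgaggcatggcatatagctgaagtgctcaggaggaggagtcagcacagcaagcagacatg
Ccr4, chr9:114496545-114496794, minus strand: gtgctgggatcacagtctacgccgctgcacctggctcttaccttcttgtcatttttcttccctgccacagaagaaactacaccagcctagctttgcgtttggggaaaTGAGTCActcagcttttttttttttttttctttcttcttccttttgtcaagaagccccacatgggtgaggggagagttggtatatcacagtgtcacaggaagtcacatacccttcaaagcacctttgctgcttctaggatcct
Ccr6 (first start), chr17:8235793-8236042, plus strand: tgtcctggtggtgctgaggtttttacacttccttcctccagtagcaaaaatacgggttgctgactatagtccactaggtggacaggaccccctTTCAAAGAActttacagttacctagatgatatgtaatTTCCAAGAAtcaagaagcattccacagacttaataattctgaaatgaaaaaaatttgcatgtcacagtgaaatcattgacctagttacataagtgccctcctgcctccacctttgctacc
Ccr6 (second start), chr17:8242276-8242525, plus strand: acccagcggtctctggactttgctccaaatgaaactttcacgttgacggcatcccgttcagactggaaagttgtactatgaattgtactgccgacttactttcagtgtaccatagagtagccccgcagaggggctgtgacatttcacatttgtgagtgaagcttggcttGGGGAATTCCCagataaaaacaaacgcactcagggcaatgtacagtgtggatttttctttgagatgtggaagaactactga
The motifs, searched on both strands, were the interferon-stimulated response element (GAAA, any 2 bases, GAAA), the interferon-gamma-activated site TTCNNNGAA, the AP-1 site TGANTCA, the T-box site GGTGTGA and the NF-kB site. Among 32851 windows of the same length, 2.98%, 7.02%, 6.75%, 3.33% and 7.25% held them, in that order. Ccr4 held an AP-1 match 143 to 137 bases before its start, Ccr6 held 2 matches to the activated site (157 to 149 and 120 to 112 bases before the first start) and overlapping NF-kB matches 81 to 71 bases before the second. The windows of Cxcr3, Cxcr4, Cxcr6, Ccr2, Ccr8 and Ccr9 held none of these letters. The Cxcr4 window was rich in GC (61.2%) and held 19 CpG dinucleotides, against medians of 52.4% and 6 over all windows, and the Ccr8 window held 1 CpG.

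Cxcr5, the receptor for the follicle chemokine CXCL13, lies on chr9:44511788-44556391 of GRCm38 and shares 110 exon bases with Bcl9l on the opposite strand. Its level in WT was 62.4, 66.5 and 68.5 CPM with DMSO and 114, 117 and 112 CPM with CMA. The STINGgt/gt libraries had 27.4, 27.5 and 29.3 CPM with DMSO and 27.2, 28.5 and 28.5 CPM with CMA. The 4 groups thus fell into a high, a middle and a low level, with the STINGgt/gt groups overlapping. CMA raised Cxcr5 in WT by 0.80 on the log2 scale (standard error 0.045, adjusted p = 1.26e-10, edgeR's quasi-likelihood test). Without functional STING the difference was 0.00 (95% interval -0.10 to 0.11, adjusted p = 0.992, edgeR).

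Cxcr4 (chr1:128588199-128592293), the receptor for CXCL12 that holds leukocytes in the bone marrow, was the closest to Cxcr5 of the 8 genes in its pattern over the groups. It stood at 52.3, 56.4 and 53.4 CPM in WT with DMSO and at 99.4, 107 and 109 CPM with CMA. The STINGgt/gt values were 24.6, 24.4 and 28.2 CPM with DMSO and 21.3, 21.2 and 20.4 CPM with CMA. No 2 groups overlapped. Between the treatments, 71.1% of all genes did not overlap in WT and 23.1% did not in STINGgt/gt. The log2 difference with CMA was 0.96 in WT (standard error 0.056, adjusted p = 1.58e-10, edgeR). It was -0.29 without functional STING (standard error 0.062, adjusted p = 0.0270, edgeR). The opposite directions gave a difference between the genotypes of 1.25 (standard error 0.083, adjusted p = 2.25e-09, edgeR). The STINGgt/gt call did not survive leaving out any of the 6 STINGgt/gt libraries in turn, with an adjusted p of 0.0548 to 0.135, although the log2 difference lay from -0.33 to -0.22.

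Cxcr3 (chrX:101731535-101734269), the Th1 receptor for CXCL9, CXCL10 and CXCL11, was much less abundant. Its level was 5.86, 6.27 and 6.19 CPM in WT with DMSO and 12.7, 13.3 and 8.64 CPM with CMA, with replicate 3 below the other CMA libraries and above all DMSO libraries. The STINGgt/gt libraries held 2.45, 2.33 and 1.81 CPM with DMSO and 3.25, 2.22 and 3.12 CPM with CMA. The log2 difference with CMA was 0.92 in WT (standard error 0.15, adjusted p = 4.00e-05, edgeR). For STINGgt/gt it was 0.36 (95% interval -0.06 to 0.79, adjusted p = 0.474, edgeR). The 2 effects differed by 0.56 (95% interval 0.02 to 1.09), which did not pass the threshold over all genes (adjusted p = 0.0685, edgeR). It passed with DESeq2 (0.57, adjusted p = 0.0430), with no filter on low counts (0.57, adjusted p = 0.00451, edgeR) and with a block for the replicate number (0.52, adjusted p = 0.0485, edgeR). It also passed without WT CMA replicate 3 (0.72, adjusted p = 0.00586, edgeR), STINGgt/gt DMSO replicate 3 (0.68, adjusted p = 0.0439, edgeR) or STINGgt/gt CMA replicate 1 (0.67, adjusted p = 0.0491, edgeR). Cxcr6 (chr9:123806477-123811754), the receptor for CXCL16, lies inside Fyco1 on the opposite strand and rested on 14 to 54 counts per library. It was at 1.02, 1.38 and 1.22 CPM in WT with DMSO and 1.51, 1.45 and 1.29 CPM with CMA, and the groups overlapped. The log2 difference of 0.23 (95% interval -0.10 to 0.56, adjusted p = 0.242, edgeR) leaves room for a rise of up to 0.56. Its STINGgt/gt levels were 0.412, 0.438 and 0.436 CPM with DMSO and 0.559, 0.498 and 0.468 CPM with CMA, which did not overlap, as was the case for 23.1% of all genes. That difference was 0.24 (adjusted p = 0.766, edgeR).

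Ccr4 (chr9:114490316-114496544), the receptor for CCL17 and CCL22 on Th2 and skin-homing cells, behaved differently from the other receptors. Its level in WT was 69.2, 65.7 and 72.1 CPM with DMSO and 30.0, 29.7 and 26.4 CPM with CMA. STINGgt/gt T cells had 58.8, 63.5 and 57.6 CPM with DMSO and 53.5, 57.9 and 53.8 CPM with CMA, where the treatments overlapped. Of the 8 genes tested, Ccr4 was the only one with its lowest level in WT with CMA. In WT it fell by 1.27 on the log2 scale (standard error 0.060, adjusted p = 1.35e-11, edgeR). The STINGgt/gt difference was -0.12 (unadjusted p = 0.0476, adjusted p = 0.379, edgeR). Ccr8 (chr9:120092133-120094906), the receptor for CCL1 that is often found with CCR4 on the same cells, moved the opposite way. It was at 14.2, 15.2 and 14.9 CPM in WT with DMSO and at 22.9, 24.6 and 23.4 CPM with CMA. The STINGgt/gt values here were 11.0, 10.6 and 12.2 CPM with DMSO and 11.7, 9.52 and 11.3 CPM with CMA. The rise in WT was 0.68 (standard error 0.075, adjusted p = 5.68e-07, edgeR), and the STINGgt/gt groups overlapped, with a difference of -0.06 (95% interval -0.23 to 0.11).

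Ccr6 (chr17:8236043-8257127), the CCL20 receptor of Th17 cells, fell the most of the receptor genes. In WT it was at 10.3, 8.82 and 14.5 CPM with DMSO and at 3.32, 3.67 and 3.72 CPM with CMA, a decrease of 1.67 on the log2 scale (standard error 0.16, adjusted p = 6.65e-08, edgeR) or 3.18-fold. Its STINGgt/gt levels of 2.86, 2.74 and 3.21 CPM with DMSO and 2.98, 2.60 and 2.42 CPM with CMA overlapped, so that CMA brought WT T cells close to the STINGgt/gt level. The WT DMSO libraries spread widely, and leaving out replicate 3, the highest, gave -1.41 in place of -1.67. Ccr2 (chr9:124101950-124113557), the receptor for CCL2 on monocytes and memory T cells, had 6.23, 6.91 and 8.46 CPM in WT with DMSO and 5.91, 6.20 and 5.83 CPM with CMA. The groups did not overlap (nor did those of 71.1% of all genes), but the gap was narrow. The log2 difference was -0.28 (standard error 0.11, adjusted p = 0.0324, edgeR). Without WT DMSO replicate 3 it was -0.13 (adjusted p = 0.290, edgeR), and leaving out WT CMA replicate 1 or 3 also ended the call. So did DESeq2 (adjusted p = 0.0978), RLE scaling (0.0534), limma on the deposited log2 values (0.120), a minimum of 10 counts in every library (0.0642) and a fit of only the 2 groups compared (0.0957). Ccr2 in STINGgt/gt was at 2.29, 2.08 and 2.27 CPM with DMSO and 1.97, 2.24 and 2.49 CPM with CMA. A share of 1.91% of the 50-base stretches in Ccr2 exons also occurs in other genes, and reads there may match more than 1 gene.

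**Figure D3:**
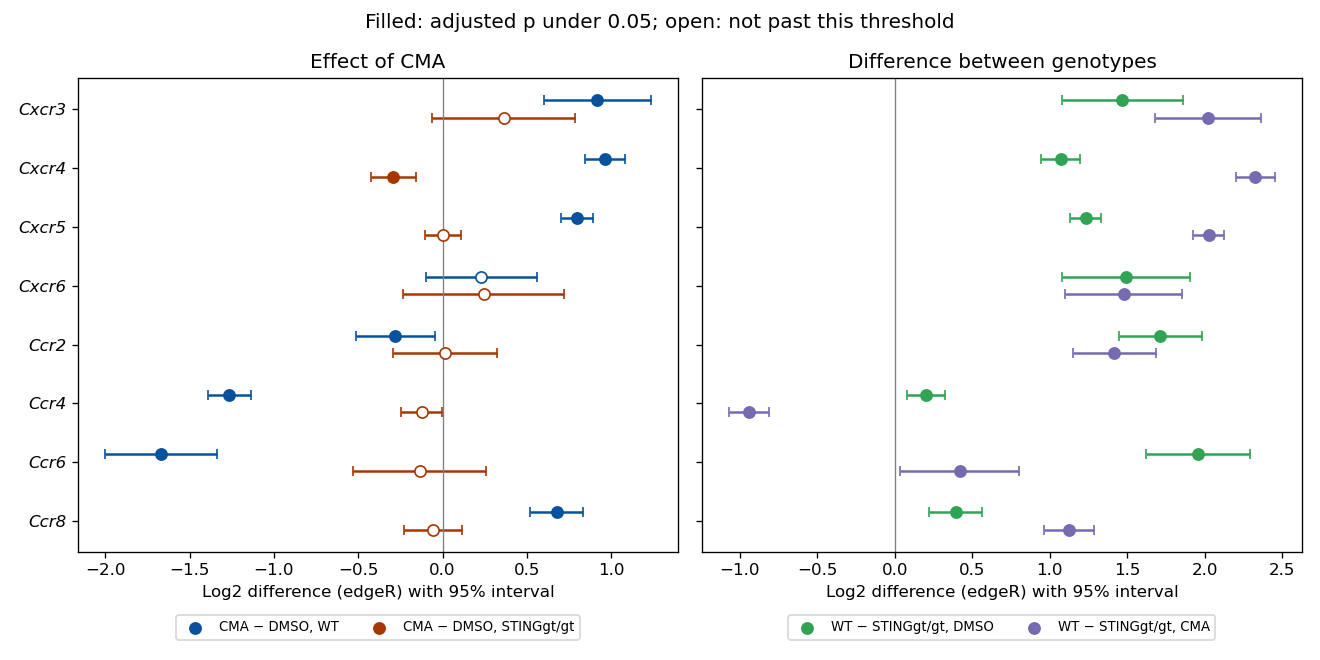
Log2 difference of each gene (x axis, with its 95% interval) for CMA against DMSO in each genotype (left) and for WT against STINGgt/gt with each treatment (right), with filled points past an adjusted p of 0.05. Cxcr4 is the only filled STINGgt/gt point on the left, and every WT-minus-STINGgt/gt point with DMSO lies right of 0.

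The effect of CMA depended on the genotype for 5 of the 8 genes, by the test of the difference itself (58.8% of all genes were called). It was larger in WT for Cxcr4, by 1.25, for Cxcr5, by 0.80 (adjusted p = 4.09e-08, edgeR), and for Ccr8, by 0.73 (adjusted p = 2.88e-05, edgeR). It was lower in WT for Ccr4, by -1.14 (adjusted p = 6.51e-09, edgeR), and for Ccr6, by -1.54 (adjusted p = 4.85e-05, edgeR). For Ccr2 the difference was -0.30 (95% interval -0.68 to 0.09) and for Cxcr6 -0.01 (95% interval -0.55 to 0.52), and both intervals include 0. The 3 higher and 2 lower genes compare with 27.2% higher and 31.6% lower over all genes. The CMA comparison in WT, the genotype comparisons and this difference share libraries, and their values are given side by side without a further test.

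The genotypes also differed without CMA. With DMSO all 8 genes were higher in WT, against 42.7% of all genes called, 22.9% higher and 19.8% lower, and no gene's groups overlapped (47.9% of all genes did not). Ccr6 differed most, by 1.96 on the log2 scale or 3.88-fold (standard error 0.16, adjusted p = 5.45e-08, edgeR), followed by Ccr2 (1.71), Cxcr6 (1.49), Cxcr3 (1.47), Cxcr5 (1.23) and Cxcr4 (1.07). Ccr8 (0.39, adjusted p = 0.000836, edgeR) and Ccr4 (0.20, adjusted p = 0.00917, edgeR) differed less, and the Ccr4 call was lost without STINGgt/gt DMSO replicate 3 (adjusted p = 0.0546, edgeR). The median over the receptor genes was 1.35, beside 0.00 over all genes tested. With CMA, 7 genes were higher and 1 lower in WT, against 73.5% of all genes called, 37.0% higher and 36.5% lower, and again no groups overlapped (78.9% of all genes did not). The difference was then 2.33 for Cxcr4, 2.03 for Cxcr5, 2.02 for Cxcr3, 1.13 for Ccr8 and 0.42 for Ccr6 (adjusted p = 0.0469, edgeR). The Ccr6 call was lost without WT DMSO replicate 1, any WT CMA or STINGgt/gt DMSO library, or STINGgt/gt CMA replicate 2 or 3 (adjusted p up to 0.130), and with library-size scaling (0.37, adjusted p = 0.0689, edgeR). Ccr4 changed side, to -0.94 (adjusted p = 4.17e-10, edgeR).

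Markers of other cells differed between the genotypes as well. With DMSO, 6 of 6 B-cell markers, 6 of the 6 myeloid markers tested and 5 of 6 markers of CD8 and natural killer cells were higher in WT (adjusted p under 0.05, edgeR). Over all genes tested, 22.9% were. B cells also carry CXCR5, CXCR4 and CCR6, and monocytes carry CCR2. The B-cell gene Ighm averaged 494 CPM in WT and 205 CPM in STINGgt/gt with DMSO (SD 34.2 and 3.19, n = 3), a log2 difference of 1.27 beside 1.23 for Cxcr5. Over the 6 B-cell markers this difference ran from 0.46 (Ms4a1) to 1.60 (Cd79b), with a median of 1.05. With CMA in WT, Ighm was 480 CPM (difference -0.04, adjusted p = 0.527, edgeR), whereas Ms4a1 rose by 1.12, with 4 of 6 B-cell markers higher. Markers of CD8 and natural killer cells were lower with CMA in WT (5 of 6), and 3 of 6 myeloid markers were lower and 1, Cst3, was higher. Among all genes, 33.0% were higher and 37.4% lower with CMA in WT. The markers of plasmacytoid dendritic cells, which carry CCR9, included Siglech at no more than 1 count in any library. Of this list Bst2, which interferon also induces, rose with CMA in WT from 79.4 to 409 CPM (2.37 on the log2 scale), Tcf4 rose from 25.2 to 41.7 CPM (0.72) and Ly6d fell from 10.6 to 8.64 CPM (-0.30). With DMSO, Tcf4 (0.70) and Ly6d (1.18) were higher in WT than in STINGgt/gt, and Bst2 (-0.06) was not past the threshold. The part of other cells in the receptor results was not tested.

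Ligands of these receptors rose in WT. Of 15 chemokines that bind a member, 6 had enough counts, and 6 of 6 were higher with CMA in WT, where 33.0% of all genes were. Cxcl10, a ligand of CXCR3, went from 6.50 ± 0.662 to 269 ± 10.1 CPM (SD, n = 3), a log2 difference of 5.38 (adjusted p = 1.02e-18 in edgeR). Cxcl9 rose by 1.77, Cxcl11 by 4.37 and Cxcl16, the ligand of CXCR6, by 2.11. Ccl22, a ligand of CCR4, rose from 33.6 to 58.7 CPM while its receptor fell. Ccl17, the other CCR4 ligand, had at most 16 counts in any library and was not tested. Ccl25 rose by 0.35. Without functional STING, Cxcl9 (0.56, adjusted p = 0.00383, edgeR) and Cxcl10 (0.43, adjusted p = 0.00853, edgeR) rose as well, by less than in WT (adjusted p of the difference 6.95e-07 and 4.21e-15, edgeR). The ligands of CXCR4, CXCR5, CCR2, CCR6 and CCR8 (Cxcl12, Cxcl13, Ccl2, Ccl7, Ccl8, Ccl12, Ccl20 and Ccl1) had at most 6 counts in any library.

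Among 15 further chemokine receptor genes 8 were tested, of which 3 were higher and 4 lower with CMA in WT, near the 33.0% and 37.4% of all genes. Ccr7, the lymph node homing receptor, was far more abundant than any of the 9 genes, with a mean of 511 CPM per kb against 28.5 for Cxcr4. It rose from 563 ± 37.9 to 2263 ± 42.1 CPM (SD, n = 3), a log2 difference of 2.01 (adjusted p = 3.57e-15 in edgeR). Ccrl2, an atypical receptor, rose from 6.66 to 207 CPM (4.97). Ccr3 rose by 1.64 from 1.06 CPM, and Cxcr1 fell by 3.06 from 3.15 CPM.

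Genes that transmit or end the receptor signal were called in both directions. Of 28 symbols listed for G proteins, receptor kinases, arrestins, RGS proteins and migration effectors, 27 were in the counts, the kinase Grk2 under its older symbol Adrbk1, and all 27 were tested. With CMA in WT, 9 were higher and 14 lower, where 33.0% and 37.4% of all genes were, and in STINGgt/gt T cells 1, Pik3cg, was lower (0.920% of all genes). These counts are not read as particular to the list. The differences ran from -3.17 for Rgs16, which shortens the G protein signal, to 1.41 for Pik3r5, a subunit of phosphoinositide 3-kinase gamma. The 3 genes with the highest CPM had 0.33 (Rac2, a GTPase of migration), -0.23 (Cdc42) and 0.12 (Gnai2, the inhibitory G protein subunit) on the log2 scale. Of 12 transcription factors of the T-cell subsets that the receptors mark, 8 were higher and 3 lower with CMA in WT. Runx3 rose by 0.64, Foxo1 by 0.18 and Tbx21, the Th1 factor, by 0.87 (adjusted p = 2.15e-11, edgeR), and Tbx21 rose by 0.30 in STINGgt/gt T cells too (adjusted p = 0.00208, edgeR).

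Of the 9 genes, 6 lie on chromosome 9, and Ccr9, Cxcr6 and Ccr2 sit in a stretch of 435 kb with 9 protein-coding genes. Neighbours there changed in both directions. With CMA in WT, Lztfl1 (0.90) and Fyco1 (0.82), the gene in which Cxcr6 lies, rose while Cxcr6 had 0.23 and did not pass the test. At the other end Ccr3 rose by 1.64, Ccr1 fell by 0.72 and Ccr2 fell by 0.28. Between the genotypes with DMSO, Ccr1 (3.76), Ccr2 (1.71) and Cxcr6 (1.49) were higher in WT. The Ccr1 value rests on 1.53 CPM in WT and 0.109 CPM in STINGgt/gt, close to the floor of 3 counts, and its size is uncertain. Ccr3 averaged 1.06 CPM in WT and 0.0354 CPM in STINGgt/gt. The last lies under the 0.0773 to 0.0934 CPM that 3 counts are worth in those libraries, so no fold is given for Ccr3. Lztfl1 (-0.12) and Fyco1 (-0.10) were not past the threshold. Ccr9, Xcr1 and Ccr1l1 were not tested for low counts, and Ccr9 shares 269 exon bases with Gm17200 on its own strand and, on the opposite strand, 1932 with AC165425.1 and 22 with Slc6a20a.

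**Figure D4:**
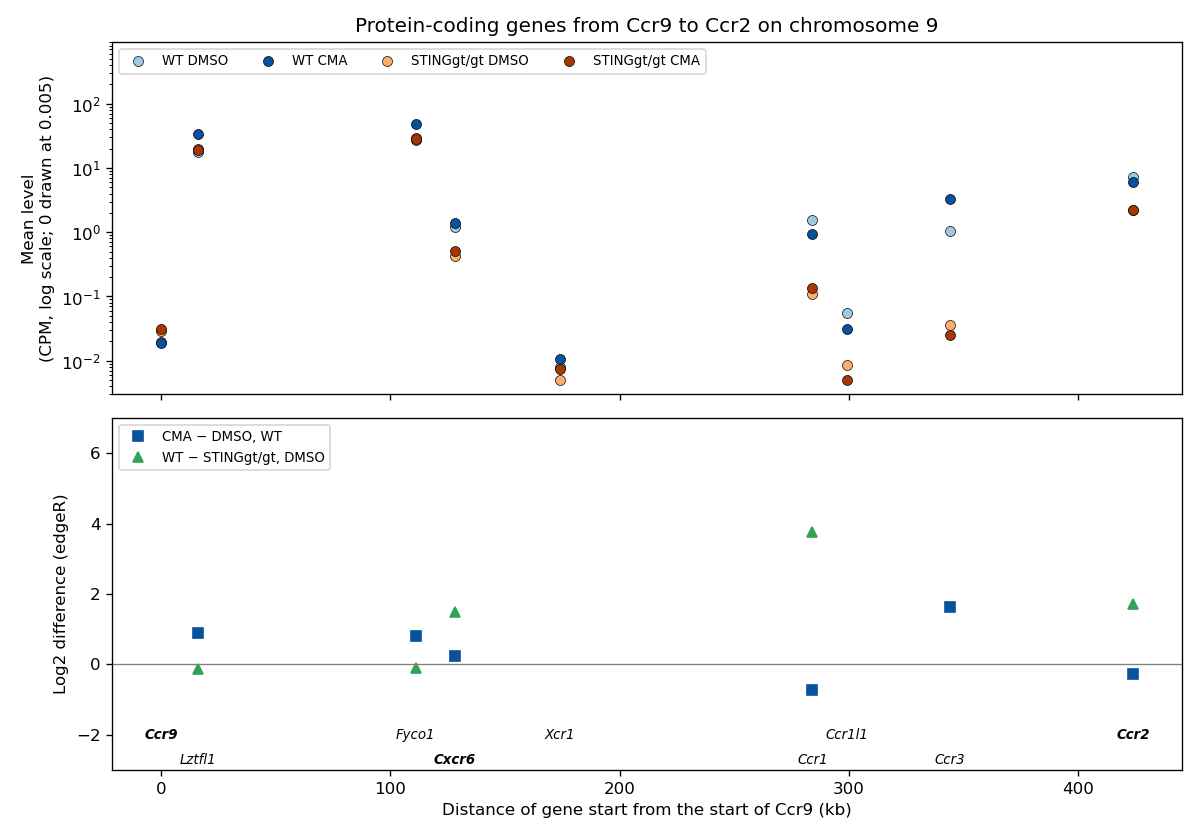
Mean level (top, CPM on a log scale, zeros drawn at 0.005) and log2 difference (bottom) of the 9 protein-coding genes from Ccr9 to Ccr2, placed by the distance of their start from that of Ccr9 in kb, with members in bold. For WT against STINGgt/gt with DMSO, Cxcr6, Ccr1 and Ccr2 lie above 0, Lztfl1 and Fyco1 lie near 0, and Ccr3 has no point because its STINGgt/gt level is under the floor of 3 counts.

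The genes whose levels over the 4 groups were most like a member's were found as the smallest root mean square distance between centred log2 group means, a description over 4 groups with no test. For Cxcr5 the nearest of 9760 genes was Igkc, an immunoglobulin light chain constant gene, at a distance of 0.061 (133, 217, 55.8 and 60.0 CPM in WT with DMSO, WT with CMA, STINGgt/gt with DMSO and STINGgt/gt with CMA), and the second was the light chain segment Igkv10-96. For Cxcr4 it was Capsl (0.054), and Il12rb2, a subunit of the interleukin-12 receptor, was among the 3 nearest to both Cxcr4 and Cxcr5. Ccr2 was nearest to Ctsw (0.048), a protease gene of cytotoxic lymphocytes, and the B-cell adaptor Blnk was among its 3 nearest. Ccr4 was nearest to Dock5 (0.018), Ccr8 to 1110007C09Rik (0.014), Ccr6 to Gatm (0.082), Cxcr3 to Fam167a (0.094) and Cxcr6 to Smagp (0.064). Within the 8 genes Cxcr4 and Cxcr5 were the closest pair (0.12), followed by Cxcr3 and Cxcr5 (0.14), and Ccr4 was the farthest from Cxcr3 (1.31).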

How the data were processed

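RNA was sequenced in 12 libraries of mouse T cells, 3 for each combination of genotype and treatment. Per the submitters' processing notes, cutadapt 1.3, STAR 2.4.0f1, HTSeq 0.6.1 and RSEM 1.2.16 were used with GRCm38. The deposited files are raw read counts for each Ensembl gene and, made by the authors, a table of log2 expression values. Entries that name no gene were left out of library sizes. Non-unique alignments took 27.8% to 30.3% of entries, reads outside genes 4.86% to 7.16% and ambiguous reads 0.594% to 0.635%.

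From the counts, edgeR 4.0.16 (R 4.3.3) was run on TMM-scaled libraries after filterByExpr (by group, leaving 13811 genes), with the 4 groups in a single quasi-likelihood model and Benjamini-Hochberg adjustment over all genes. Levels are CPM on the TMM-adjusted library size, per kb of merged GENCODE M21 exon between genes. Likeness used log2 CPM (prior count 2) of genes with a mean of at least 5 CPM. Alternatives were DESeq2 1.42.0, library-size and RLE scaling, limma 3.58.1 on the deposited log2 values, no filter, a minimum of 10 counts in all libraries, a fit of the 2 compared groups alone, a replicate block and leaving out each library. A count of 3 was the floor. The genes of other lists named are those with the highest mean CPM, at most 5 for receptors and ligands and 3 for the others. Further genes named in the text were chosen after their values were seen. The 9 genes and the lists were chosen with earlier results of these data known. Some genes covered by the naming rule are not reported here.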

Additional observations from a re-analysis of the deposited data

Results flagged for a closer look

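For 5 of the 8 receptor genes tested, beside 58.8% of all genes, the response to CMA was not the same in the 2 genotypes, by edgeR's test of the difference. It was higher in WT by 1.25 on the log2 scale for Cxcr4, by 0.80 for Cxcr5 and by 0.73 for Ccr8. It was lower in WT, with differences of -1.14 for Ccr4 and -1.54 for Ccr6. No test for a single library far from the others was run in these groups of 3.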

How the results depend on the processing

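In WT, 4 receptor genes were higher with CMA under all 20 alternatives and 2 or 3 were lower, since Ccr2 lost its call in 8 of them (adjusted p 0.0534 to 0.290 there). In STINGgt/gt T cells the number called lower ranged from 0 to 1 when libraries were left out, and was 0 when any of the 6 STINGgt/gt libraries was left out (Cxcr4, adjusted p 0.0548 to 0.135), while all genes called ran from 56 to 656 (182 in the analysis reported, 323 with DESeq2, 433 with no filter and 656 with only the 2 groups compared). For the difference between genotypes, Cxcr3 gained a call in 6 of 19 alternatives. Ccr4 lost its call between genotypes with DMSO in 1 of 20 (adjusted p = 0.0546, edgeR) and Ccr6 with CMA in 10 of 20. Directions turned only where the value lay near 0. In STINGgt/gt T cells Cxcr5 was -0.0038 with limma on the deposited log2 values and -0.017 to 0.032 with a library left out, Ccr2 was -0.069 to 0.090 and Ccr8 -0.12 to 0.030. For the difference of Cxcr6 the values were 0.012 with DESeq2, 0.013 with RLE scaling, 0.055 with limma, 0.022 with at least 10 counts in every library and -0.092 to 0.073 with a library left out. The cause of these changes was not tested. Same-numbered libraries were not treated as pairs in the analysis reported. Their deviations correlated at 0.0019 to 0.13 in WT and 0.059 to 0.063 in STINGgt/gt, which cannot exclude pairing. Of the 6 DMSO libraries, 5 correlated best with the CMA library of their own number, a hint of pairing from the data. The deposited sample names of DMSO and CMA libraries share a first digit in 5 of 6 same-numbered pairs, and the second digit follows the treatment. The labels do not say what the first digit marks, so pairing by design stays possible. With a replicate block 363 genes were called in STINGgt/gt T cells and 9950 in WT, and Cxcr3 passed the test of the difference (0.52, adjusted p = 0.0485, edgeR). The largest shift of the median of all genes under another scaling was -0.05, with library-size scaling for WT against STINGgt/gt with CMA. The comparison of only 2 groups does not exist for the difference between genotypes. The 14 to 54 counts of Cxcr6 per library limit its intervals.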
